A study of Mus musculus with 24 samples.

Results

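Transcripts of 10 inflammatory and regulatory cytokine genes were followed in tumor-associated macrophages: Il1a, Il1b, Il1rn, Tnf, Il6, Il10, Il18, Il12b, Osm and Tgfb1. The genes were chosen by symbol as secreted proteins with which macrophages promote or restrain inflammation, and each matched 1 of the 55487 gene IDs of the count table. All 10 were also among the 3941 genes treated as expressed here.

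The macrophages, CD45+ CD11b+ F4/80+ by sort, came out of MC38 tumors grown orthotopically in C57BL/6J hosts; MC38 is a cell line of mouse colon carcinoma. Its cells either lacked Apc (APC-KO) or carried it (APC-WT); Apc restrains Wnt signalling and is the tumor suppressor most often lost in colorectal cancer. There were 2 APC-KO tumors and 2 APC-WT tumors, with 6 libraries of each tumor and 24 libraries in all, made from total RNA by an ultra low input protocol. The labels call the 6 libraries replicates of 1 sample, so their spread shows technical or within-tumor variation, and genotypes were compared over tumors. Wherever the tumors of a genotype have a value each, that of tumor 1 stands before that of tumor 2. No group received a treatment beyond the implanted tumor. Age and sex of the mice, and whether each MC38 genotype is 1 clone, are not given in the sources used here. Apc was changed in the tumor cells and not in the mice that supplied the macrophages, and its level in these libraries cannot serve as a check of the labels.

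Macrophages answer microbial products and tissue damage through the transcription factors NF-kB and AP-1, which switch on the genes of IL-1, TNF, IL-6 and IL-12. IL-1 alpha and IL-1 beta signal through 1 shared receptor, which the antagonist encoded by Il1rn occupies without signalling, and IL-1 beta and IL-18 must be cut by caspase-1 before they act. IL-10 and TGF-beta restrain inflammation, and oncostatin M belongs to the IL-6 family, whose receptors signal through STAT3. In colorectal tumors these cytokines are known as signals between macrophages, tumor cells and stroma.

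Promoter windows of 4 members are shown because Il1a and Il1rn are the 2 members with an entry that were called lower in APC-KO both with and without the length correction described below, Il1b shares its chromosome and receptor with them, and Il6 had the only positive change with that correction. Each is the 250 bases before the annotated start, 5′ to 3′ on the gene's own strand, from RefSeq on GRCm38.p6. The Il1a window lies at chr2:129309973-129310222 (minus strand), the Il1b window at chr2:129371140-129371389 (minus strand), that of the first of 3 Il1rn starts at chr2:24336610-24336859 (plus strand) and the Il6 window at chr5:30012864-30013113 (plus strand). Capitals mark matches, on either strand, to the TATA box (letters TATAAA), the AP-1 site (letters TGANTCA), the C/EBP site (letters TTGCNNAA), the STAT site (letters TTCNNNGAA) or the consensus of NF-kB.
Il1a: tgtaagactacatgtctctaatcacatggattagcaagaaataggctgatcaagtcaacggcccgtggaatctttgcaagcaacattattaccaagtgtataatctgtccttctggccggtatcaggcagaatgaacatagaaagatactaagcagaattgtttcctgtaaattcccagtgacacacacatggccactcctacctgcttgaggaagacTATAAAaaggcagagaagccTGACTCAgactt
Il1b: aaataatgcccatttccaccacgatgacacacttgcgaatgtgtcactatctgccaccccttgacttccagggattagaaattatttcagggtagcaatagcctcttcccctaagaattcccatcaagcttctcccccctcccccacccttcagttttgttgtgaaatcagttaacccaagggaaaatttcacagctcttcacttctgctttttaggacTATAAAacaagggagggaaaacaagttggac
Il1rn: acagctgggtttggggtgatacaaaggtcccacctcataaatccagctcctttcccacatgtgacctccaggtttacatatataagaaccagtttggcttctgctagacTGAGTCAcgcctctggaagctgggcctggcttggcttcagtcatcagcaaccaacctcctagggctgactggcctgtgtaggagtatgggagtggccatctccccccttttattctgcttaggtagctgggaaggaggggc
Il6: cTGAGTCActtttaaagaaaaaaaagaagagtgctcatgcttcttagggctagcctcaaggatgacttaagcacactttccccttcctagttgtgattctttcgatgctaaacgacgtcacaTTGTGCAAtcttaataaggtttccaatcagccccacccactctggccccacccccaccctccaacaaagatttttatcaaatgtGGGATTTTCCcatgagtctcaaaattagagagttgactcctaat
Il1a held a TATA match at bases -32 to -27 before the start and an AP-1 match at -12 to -6, and Il1b a TATA match at -31 to -26. The Il1rn window held an AP-1 match at -141 to -135. The Il6 window held AP-1 at -249 to -243, C/EBP at -128 to -121 and NF-kB at -44 to -35. No 2 of these matches overlapped. Among 32851 windows of the same length, 12.4% held a TATA match, 6.75% AP-1, 9.56% C/EBP, 7.02% STAT and 3.90% NF-kB. Of the 10 members 8 had an entry; Il10 and Osm are named only. A match of letters is a description of the window and says nothing of binding in these cells.

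Total counts per library ranged between 8895722 and 19328572 in APC-KO tumor 1, between 13464061 and 17196820 in APC-KO tumor 2, between 74972634 and 93568353 in APC-WT tumor 1 and between 28018638 and 46837543 in APC-WT tumor 2. Expressed genes held 33.2% and 31.8% of the counts in the APC-KO tumors, against 81.7% and 73.6% in the APC-WT tumors, and loci resembling a satellite repeat held 37.9% and 38.5% against 1.32% and 7.08%. Levels are therefore given as scaled CPM, that is CPM over the counts of expressed genes, beside the background expected from the silent odorant and pheromone receptor genes. Short transcripts were higher and long ones lower in APC-KO than in APC-WT, so each genotype change is given with an offset that removes this trend over transcript length and without it. All 10 sort and macrophage markers lay at 2 or more times background in each tumor. Of their sum the 3 C1q genes, which encode complement C1q, made up 14650 and 16780 scaled CPM in the APC-KO tumors and 13900 and 10580 in the APC-WT tumors, and the other 7 made up 2951 and 3031 against 9563 and 8320. The markers of the sort were among those lower in APC-KO. Ptprc, which encodes CD45, read 387 and 403 in APC-KO and 1143 and 1131 in APC-WT, Itgam, which encodes CD11b, 276 and 277 against 1607 and 1743, and Adgre1, which encodes F4/80, 271 and 283 against 1276 and 1127. Csf1r, the receptor of the macrophage growth factor CSF-1, read 644 and 743 in APC-KO and 3929 and 2963 in APC-WT. In these bulk samples fewer cells of a type and less RNA per cell cannot be told apart.

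Il1b was by far the most abundant of the cytokine transcripts in each tumor. Per kilobase of its longest transcript it stood at 4839 and 3248 scaled CPM in the APC-KO tumors, against 4062 and 4268 in the APC-WT tumors. The next genes on this per-length scale were Il1rn, Il1a, Osm and Tnf, whose levels lay between 247 and 438 in the APC-KO tumors and between 302 and 814 in the APC-WT tumors. Tgfb1 followed at 110 and 107 per kilobase in APC-KO and 153 and 148 in APC-WT. Il6, Il10, Il18 and Il12b formed the lower end, between 26.9 and 86.1 in APC-KO and between 18.6 and 68.3 in APC-WT. The order among the upper genes differed between tumors: Tnf ranked 2 in APC-KO tumor 2 and 5 in the other 3 tumors. Libraries of neighbours in the order overlapped for Osm and Tnf in APC-KO tumor 1, Il1a and Il1rn in APC-KO tumor 2, Osm and Il1a in both APC-WT tumors, and for several neighbours at the lower end. Summed, the 10 genes stood at 10580 and 8278 CPM over the counts of expressed genes in the APC-KO tumors and 10750 and 10850 in the APC-WT tumors.

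**Figure D1:**
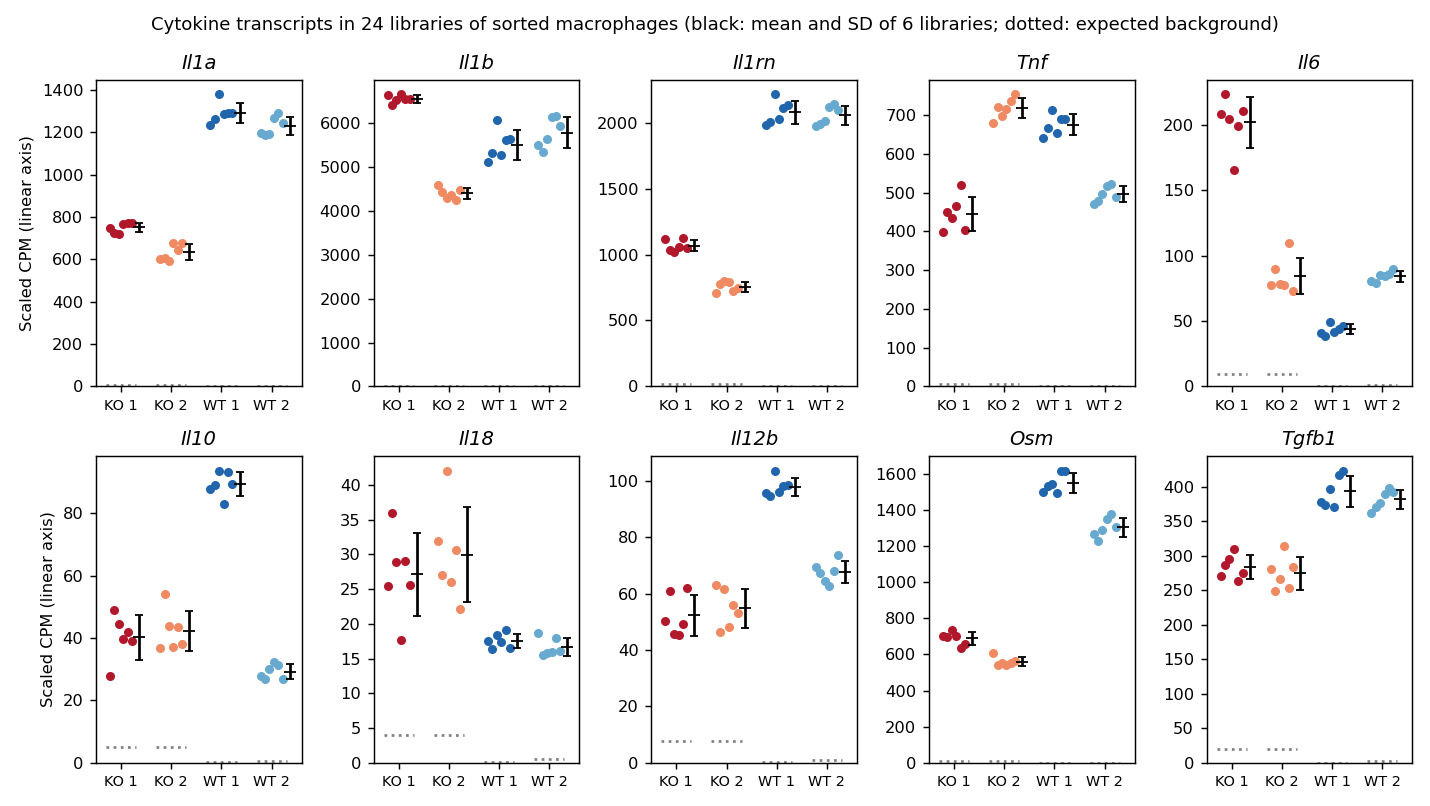
Level of each cytokine gene in scaled CPM (linear axis, one scale per gene) in 6 libraries of APC-KO tumor 1, APC-KO tumor 2, APC-WT tumor 1 and APC-WT tumor 2 (KO 1 to WT 2), with mean and SD in black and the expected background dotted. In Il1a, Il1rn, Osm and Tgfb1 every APC-KO library lies below every APC-WT library, as in 28.4% of expressed genes. Tnf, Il6 and Il10 differ between tumors of 1 genotype.

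The comparison of genotypes asks what the loss of Apc in the tumor cells goes with in the macrophages around them. Il1a, Il1rn and Osm fell in APC-KO under both treatments of transcript length, to between 0.441 and 0.560 of their APC-WT level. With the length offset 5 of the 10 members were lower by the quasi-likelihood test of edgeR on summed tumors (Il1a, Il1rn, Il18, Il12b and Osm), where 24.4% of all expressed genes were. Of these 5, Il18 and Il12b stood at 6.72 to 7.37 times background in the APC-KO tumors and met the limit of 10 times through APC-WT. Il10, which was not called, did likewise, as did 2288 of the 3941 expressed genes that lay below 10 times background in both APC-KO tumors. With the offset 0 were higher (0 also at an unadjusted p below 0.05, and 1, Il6, by DESeq2), where 24.9% were. Without the offset 4 were lower (Il1a, Il1rn, Osm and Tgfb1), against 30.7% of expressed genes, and Il18 was higher, against 32.7%. The 3 genes lower both ways compare with 19.5% of expressed genes. The median change of the 10 was -0.75 on the log2 scale with the offset, against -0.03 for all expressed genes, and -0.48 without it, against 0.00. In 4 members, Il1a, Il1rn, Osm and Tgfb1, the 12 APC-KO libraries all lay below the 12 APC-WT libraries, which held for 28.4% of expressed genes; none of the members showed the reverse, which held for 28.1%. These calls rest on 2 tumors a side: with the offset, 0 members passed without APC-KO tumor 2 (5 at an unadjusted p below 0.05, 1 of them higher) and 3 without APC-KO tumor 1. The sort markers and Csf1r fell as well. With the offset Ptprc fell by 1.02 ± 0.143 log2 units (edgeR adjusted p = 0.00676) and Adgre1 by 1.72 ± 0.152 (0.00321). Itgam fell by 2.05 ± 0.151 (0.0028) and Csf1r by 1.77 ± 0.203 (0.00451). All 4 passed without it too, between -2.57 and -1.52. The remaining macrophage markers did not all fall. Fcgr1, Mrc1, C1qa and C1qb were called in neither fit, with Fcgr1 at 0.40 and Mrc1 at 0.21 with the offset. Cd68 and C1qc were called lower with the offset only, at -1.10 and -0.91. The part of these marker differences in the cytokine changes was not tested. Changes are relative to expressed genes, and TMM scaling over all genes moves the median expressed gene by -4.01 log2 units.

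**Figure D2:**
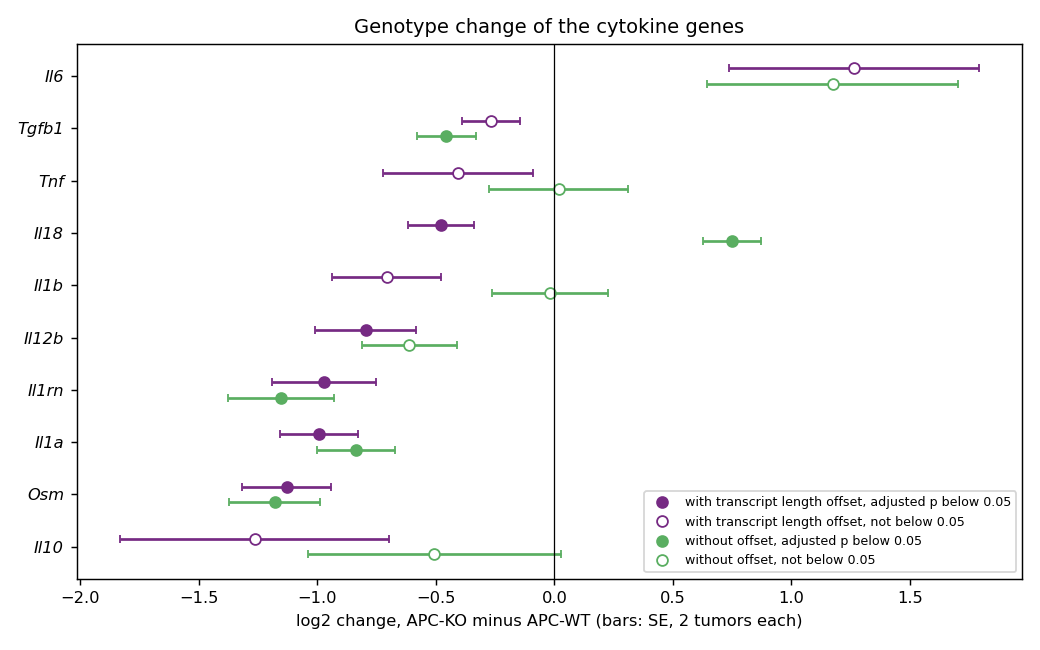
Log2 change of each cytokine gene, APC-KO minus APC-WT, with its SE over 2 tumors a genotype, with (purple) and without (green) the transcript length offset; filled points have an edgeR adjusted p below 0.05. Il1a, Il1rn and Osm lie between -1.18 and -0.84 under both, and Il18 changes sign between them.

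Il1a (ENSMUSG00000027399, chromosome 2, 129299610 to 129309972, minus strand, GRCm38) encodes IL-1 alpha, which acts from the cell surface and is released by dying cells. Its 12 APC-KO libraries had a lowest, median and highest level of 593, 699 and 773 scaled CPM, and its 12 APC-WT libraries 1187, 1263 and 1379. Tumor means were 750.4 ± 23.2 and 634 ± 38.7 in the APC-KO tumors and 1290 ± 48.6 and 1229 ± 44.1 in the APC-WT tumors (SD, n = 6 libraries). The libraries of the genotypes did not overlap, as in 28.4% of expressed genes. The SD covers libraries of 1 tumor and not the spread between tumors. The change was -0.99 ± 0.163 log2 units with the offset, or 1.99-fold lower (SE, n = 2 tumors a genotype, edgeR adjusted p = 0.00978), and -0.84 ± 0.166 without it (adjusted p = 0.0111). In the 4 pairings of 1 tumor of each genotype, compared without the offset, it lay between -1.03 and -0.71. Without APC-KO tumor 2 the adjusted p was 0.07 with the offset and 0.0624 without it. A non-coding gene on the opposite strand, Gm14023, read 62.3 and 59.0 scaled CPM in the APC-KO tumors and 26.2 and 22.9 in the APC-WT tumors, and Il1bos, opposite Il1b, between 39.5 and 44.6 in all 4, far below Il1a and Il1b. Reads of such pairs cannot be told apart if counting did not use strand.

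Il1rn (ENSMUSG00000026981, chromosome 2, 24336853 to 24351494, plus strand, GRCm38) encodes the IL-1 receptor antagonist. It read 707, 908 and 1127 scaled CPM as lowest, median and highest of the APC-KO libraries, against 1976, 2058 and 2214 in the APC-WT libraries. As with Il1a there was no overlap, and APC-KO tumor 2 had the lowest mean at 756 ± 36.6, with 1067 ± 43.8 in APC-KO tumor 1 and 2078 ± 89.3 and 2056 ± 71.6 in the APC-WT tumors. Il1rn fell by 0.97 ± 0.218 log2 units with the offset (SE, n = 2 tumors a genotype, edgeR adjusted p = 0.0223) and by 1.15 ± 0.223 without it (adjusted p = 0.0103). Without APC-KO tumor 2 the change was -0.74 with the offset and -0.97 without it. In the 4 pairings of tumors, compared without the offset, the change lay between -1.46 and -0.95.

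Il1b (ENSMUSG00000027398, chromosome 2, 129364570 to 129371139, minus strand, GRCm38) encodes IL-1 beta, the form released after cleavage by caspase-1. Its levels were 4245, 5513 and 6661 scaled CPM as lowest, median and highest in APC-KO and 5122, 5629 and 6159 in APC-WT, so the APC-WT libraries lay within the APC-KO range. The highest and the lowest tumor were both APC-KO, with 6562 ± 87.6 in tumor 1 and 4404 ± 132 in tumor 2, against 5508 ± 345 and 5787 ± 347 in the APC-WT tumors. No change was called, at -0.71 ± 0.230 log2 units with the offset (edgeR adjusted p = 0.0586) and -0.02 ± 0.246 without it (adjusted p = 0.951). The transcript has 1356 bases, and expressed genes of like length had a median change of 0.66 without the offset. DESeq2 with the same offset called Il1b lower (-0.71, adjusted p = 0.00584).

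Il18 (ENSMUSG00000039217, chromosome 9, 50554827 to 50581840, plus strand, GRCm38) encodes IL-18, which drives interferon gamma production by T and NK cells. It was low, with 17.7, 28 and 42.1 scaled CPM as lowest, median and highest in APC-KO and 15.5, 16.9 and 19.1 in APC-WT, over an expected background of 4.04 and 4.07 in the APC-KO tumors and 0.0792 and 0.570 in the APC-WT tumors. The APC-KO libraries were mostly higher, with a small overlap. Its 2 fits called opposite directions: 0.75 ± 0.122 log2 units without the offset (edgeR adjusted p = 0.00613) and -0.48 ± 0.140 with it (adjusted p = 0.0449). In the 4 pairings of tumors, compared without the offset, the change lay between 0.63 and 0.84. At 885 bases its transcript is the shortest of the 10, and expressed genes of like length had a median change of 1.28 without the offset. Leaving out any 1 tumor raised the adjusted p with the offset to between 0.085 and 0.217. Bco2 and Tex12 overlap Il18 on the opposite strand and read between 11 and 18.8 scaled CPM in APC-KO and between 2.87 and 17.9 in APC-WT, so reads of Il18 and of these genes cannot be told apart if strand was not used.

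Osm (ENSMUSG00000058755, chromosome 11, 4236420 to 4241026, plus strand, GRCm38) encodes oncostatin M, an IL-6 family cytokine that acts on stroma and epithelium. It read 543, 621 and 738 scaled CPM as lowest, median and highest in APC-KO, against 1230, 1434 and 1618 in APC-WT. All 12 APC-KO libraries lay below the 12 of APC-WT, and tumor means were 689 ± 36.4 and 561 ± 24.4 in the APC-KO tumors and 1550 ± 55.0 and 1304 ± 53.7 in the APC-WT tumors. Osm fell by 1.13 ± 0.189 log2 units with the offset, or 2.19-fold (SE, n = 2 tumors a genotype, edgeR adjusted p = 0.0103), and by 1.18 ± 0.191 without it (adjusted p = 0.00601). Without APC-KO tumor 2 the adjusted p was 0.0675 with the offset and 0.0370 without it.

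Il6 (ENSMUSG00000025746, chromosome 5, 30013114 to 30019981, plus strand, GRCm38) encodes IL-6, which signals through STAT3. It was the only member with a positive estimate in both fits, and its tumors differed strongly within a genotype. Its libraries read 72.5, 138 and 223 scaled CPM as lowest, median and highest in APC-KO and 38.9, 64.3 and 90.1 in APC-WT. Tumor means were 202 ± 19.4 and 84.1 ± 13.7 in the APC-KO tumors and 43.6 ± 3.81 and 84.2 ± 4.06 in the APC-WT tumors, over an expected background of 9.52, 9.58, 0.187 and 1.34. APC-KO tumor 2 and APC-WT tumor 2 were level. The change of 1.26 ± 0.529 log2 units with the offset (edgeR adjusted p = 0.107) and of 1.17 ± 0.529 without it (adjusted p = 0.112) did not pass; without APC-WT tumor 2 it was 1.81 (adjusted p = 0.0443) and without APC-KO tumor 1 it was 0.49. The neutrophil markers S100a8 and S100a9, which encode calprotectin and were named after their values were seen, were likewise highest in APC-KO tumor 1 and lowest in APC-WT tumor 1: S100a8 read 93.9 and 40.1 scaled CPM in the APC-KO tumors and 9.82 and 41.1 in the APC-WT tumors, and S100a9 187, 71.0, 18.4 and 79.5. Over the whole list of 13 neutrophil markers, 10 and 8 lay at 2 or more times background in the APC-KO tumors and 13 and 11 in the APC-WT tumors. The list as a whole did not follow Il6: its sum was 620 and 370 scaled CPM in the APC-KO tumors and 491 and 679 in the APC-WT tumors, highest in APC-WT tumor 2. Csf3r, the G-CSF receptor, read 115 and 88.0 in APC-KO and 264 and 373 in APC-WT, and Mmp9, a matrix protease, 43.8 and 40.7 against 166 and 87.0. None was at 0, though Ly6g, the defining surface marker, stood at 5.17 and 4.33 in APC-KO against an expected 3.69 and 3.72, and at 0.341 and 0.957 in APC-WT against 0.0724 and 0.520. The part of neutrophil RNA in the level of Il6 was not tested.

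Tnf (ENSMUSG00000024401, chromosome 17, 35199381 to 35202007, minus strand, GRCm38) encodes TNF, made as a membrane protein and shed by ADAM17. Its libraries read 399, 600.4 and 754 scaled CPM as lowest, median and highest in APC-KO and 470.3, 581 and 714 in APC-WT, which overlap. Each genotype held 1 high and 1 low tumor, with 445 ± 44.9 and 718 ± 26.1 in the APC-KO tumors and 676 ± 27.3 and 495 ± 20.5 in the APC-WT tumors. The change was -0.41 ± 0.317 log2 units with the offset (edgeR adjusted p = 0.331) and 0.02 ± 0.293 without it (adjusted p = 0.960). The sum of 10 T and NK cell markers, cells that can also make TNF, was 133 and 258 scaled CPM in the APC-KO tumors, over an expected 94.8 and 95.4, and 24.3 and 44.5 in the APC-WT tumors, over 1.86 and 13.4. Of these markers 2 and 5 lay at 2 or more times background in the APC-KO tumors and 10 and 7 in APC-WT, none was at 0, and their part in the level of Tnf was not tested.

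Il12b (ENSMUSG00000004296, chromosome 11, 44400063 to 44414033, plus strand, GRCm38) encodes p40, the subunit that IL-12 and IL-23 share. It read 45.5, 51.7 and 63.1 scaled CPM as lowest, median and highest in APC-KO and 62.6, 84.3 and 104 in APC-WT. The ranges touched, and the 2 APC-KO tumors were alike at 52.3 ± 7.37 and 54.8 ± 6.81 while APC-WT tumor 1 stood above tumor 2, at 97.9 ± 3.26 and 67.7 ± 3.99. Its change was -0.80 ± 0.214 log2 units with the offset (edgeR adjusted p = 0.0357) and -0.61 ± 0.202 without it (adjusted p = 0.0504). With the offset it did not pass without APC-KO tumor 1 (adjusted p = 0.140) or APC-KO tumor 2 (0.122). In the 4 pairings of tumors, compared without the offset, the change lay between -0.90 and -0.30.

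Il10 (ENSMUSG00000016529, chromosome 1, 131019845 to 131024974, plus strand, GRCm38) encodes IL-10, which restrains cytokine production by macrophages themselves. The libraries read 27.7, 40.8 and 54.0 scaled CPM as lowest, median and highest in APC-KO and 26.8, 57.6 and 93.7 in APC-WT. The 2 APC-KO tumors, at 40.3 ± 7.13 and 42.3 ± 6.55, lay between APC-WT tumor 1 at 89.4 ± 3.94 and APC-WT tumor 2 at 29.2 ± 2.40. The change of -1.26 ± 0.569 log2 units with the offset (edgeR adjusted p = 0.126) and of -0.51 ± 0.535 without it (adjusted p = 0.443) did not pass. It turned on 1 APC-WT tumor: with the offset it was -1.88 (adjusted p = 0.00271) without APC-WT tumor 2 and -0.17 (adjusted p = 0.444) without APC-WT tumor 1, and without both the offset and APC-WT tumor 1 it was 0.53 (adjusted p = 0.0326).

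Tgfb1 (ENSMUSG00000002603, chromosome 7, 25687002 to 25705077, plus strand, GRCm38) encodes TGF-beta 1, which is secreted in a latent form. It read 249, 278 and 314 scaled CPM as lowest, median and highest in APC-KO and 362, 384 and 424 in APC-WT, without overlap. It was also the member most alike within a genotype, at 284 ± 17.5 and 275 ± 23.8 in the APC-KO tumors and 394 ± 22.9 and 382 ± 14.4 in the APC-WT tumors. The change was -0.46 ± 0.124 log2 units without the offset (edgeR adjusted p = 0.0289) and -0.27 ± 0.122 with it (adjusted p = 0.130), and it moved with the limit for expressed genes, to -0.71 (adjusted p = 0.0106) with a limit of 5 CPM and 5 times background and to 0.0095 (0.954) with a limit of 20. Expressed genes of like length had a median of -0.19 without the offset. Without the offset Tgfb1 passed when APC-WT tumor 2 was left out (adjusted p = 0.0431) and not when any 1 of the other 3 tumors was (between 0.0626 and 0.128).

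Ratios of 2 cytokines within a library do not depend on how libraries are scaled. The log2 ratio of Il1rn to Il1b, antagonist to agonist, was -2.62 ± 0.053 and -2.54 ± 0.097 in the APC-KO tumors and -1.41 ± 0.030 and -1.49 ± 0.041 in the APC-WT tumors (SD, n = 6 libraries), without overlap. The difference of -1.13 had a two-sided exact permutation p of 0.333, the smallest that 2 tumors against 2 can give. The ratio of Il1a to Il1b was likewise lower in APC-KO, at -3.13 and -2.80 against -2.09 and -2.23, a difference of -0.80 (exact permutation p = 0.333). That of Il10 to Tnf, at -3.48 and -4.10 in APC-KO and -2.92 and -4.09 in APC-WT, overlapped between genotypes (difference -0.29, exact permutation p = 0.667). The members of a ratio differ in length: expressed genes of like length had a median change without the offset of -0.19 for Il1rn, 0.13 for Il1a and 0.66 for Il1b, and with the offset the changes of Il1rn and Il1b were -0.97 and -0.71. Between tumors 2 and 1 of a genotype the log2 ratio of Il1rn to Il1b differed by 0.08 in APC-KO (two-sided exact permutation over 6 libraries a tumor, adjusted p over 6 tests 0.115) and by -0.09 in APC-WT (0.0052). That of Il1a to Il1b differed by 0.33 in APC-KO and by -0.14 in APC-WT (adjusted p = 0.00432 each, exact permutation), less than between genotypes. That of Il10 to Tnf differed by -0.62 in APC-KO (exact permutation, adjusted p = 0.0052) and by -1.17 in APC-WT (0.00432), more than between genotypes.

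**Figure D3:**
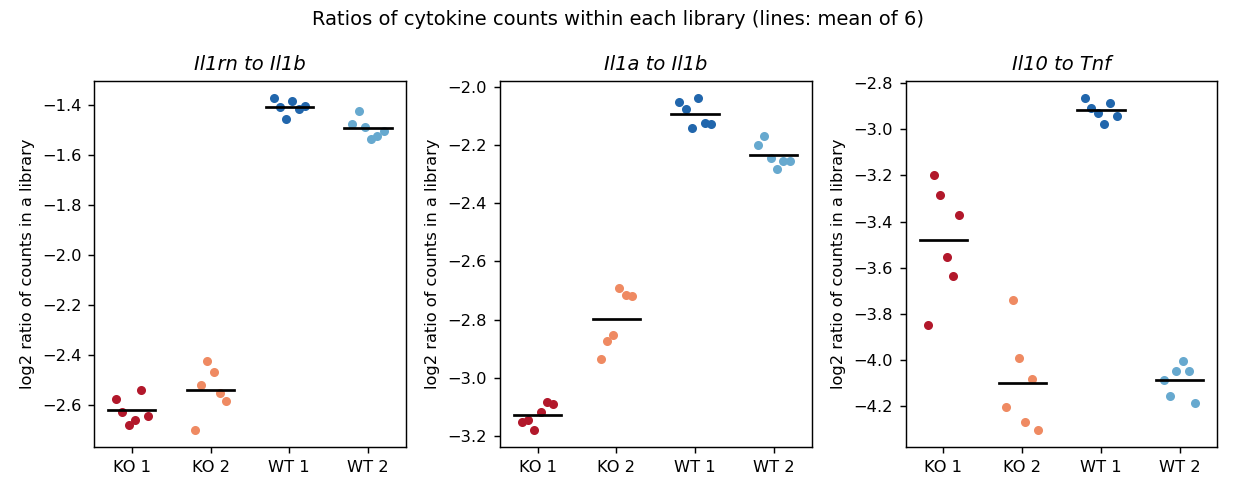
Log2 ratio of the counts of 2 cytokine genes within each of 6 libraries per tumor (KO 1 and KO 2, APC-KO; WT 1 and WT 2, APC-WT), with the tumor mean as a line. The ratio of Il1rn to Il1b lies at -2.62 and -2.54 in the APC-KO tumors and at -1.41 and -1.49 in the APC-WT tumors. Expressed genes of like length had a median change without the offset of -0.19 for Il1rn and 0.66 for Il1b. The ratio of Il10 to Tnf is highest in APC-WT tumor 1 alone.

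Tumors of 1 genotype differed in several cytokines. The labels do not link same-numbered tumors of the 2 genotypes, so the sign of a change from tumor 1 to tumor 2 cannot be compared between genotypes. In APC-KO tumor 2 against tumor 1, 6 of the 10 members differed by the same test on libraries, where 2.5% of all 45451 genes tested and 20.7% of expressed genes did. In APC-WT tumor 2 against tumor 1, 5 of the 10 differed, about the share of expressed genes (49.3%, and 83.3% of all genes). These p-values measure the spread between libraries of 1 tumor and not between animals. Relative to tumor 1, Tnf in tumor 2 was higher by 0.69 ± 0.050 log2 units in APC-KO (adjusted p = 5.69e-11) and changed by -0.45 ± 0.050 in APC-WT (adjusted p = 6.53e-09). Il6 in tumor 2 changed by -1.26 ± 0.087 in APC-KO (adjusted p = 1.45e-11) and by 0.95 ± 0.084 in APC-WT (adjusted p = 8.56e-11). The difference between those changes was not tested as an interaction, and its sign would depend on how the tumors were numbered. Il1b, Il1rn, Il1a and Osm were lower in APC-KO tumor 2 than in tumor 1, by -0.58, -0.50, -0.24 and -0.30. In APC-WT the same genes moved by 0.07, -0.02, -0.07 and -0.25, and of these Osm alone passed (adjusted p = 1.21e-06). Il10 changed by -1.62 ± 0.10 in APC-WT tumor 2 (adjusted p = 8.89e-14), the largest shift of a member within a genotype, and by 0.07 ± 0.106 in APC-KO. Il12b changed by -0.53 ± 0.080 in APC-WT and by 0.06 ± 0.086 in APC-KO, while Il18 and Tgfb1 passed in neither. Scaled by TMM over all genes instead of expressed genes, all 10 members were lower in APC-WT tumor 2, between -2.91 and -0.35, and Il1b and Il6 turned sign.

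**Figure D4:**
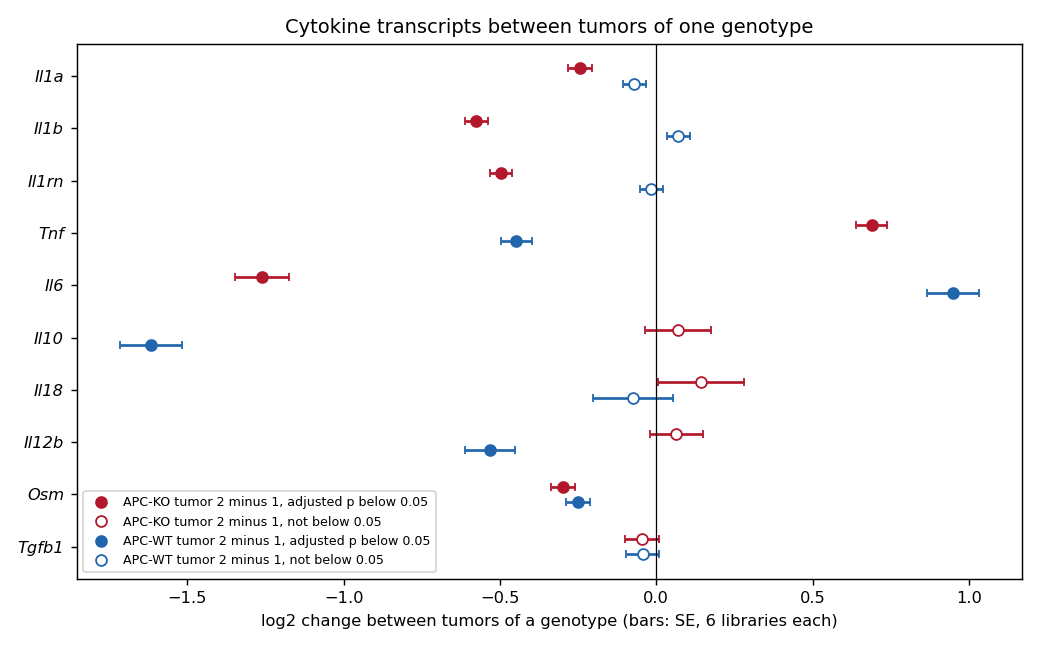
Log2 change of each cytokine gene between tumor 2 and tumor 1 of a genotype, with SE over 6 libraries a tumor (red APC-KO, blue APC-WT; filled points have an edgeR adjusted p below 0.05). Tnf and Il6 differ between the tumors of both genotypes, with signs that depend on the numbering of the tumors. Il10 shows the largest shift, -1.62 in APC-WT.

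Of 51 expressed genes on 7 lists of the cytokines' own pathways, 28 were lower and 4 higher in APC-KO with the offset. Of all expressed genes 24.4% and 24.9% were. Without the offset 31 were lower and 3 higher, against 30.7% and 32.7% of all expressed genes. These shares also stand beside the counts of each list below. Many met the limit for expressed genes through APC-WT: 24 of the 51 stood below 10 times background in both APC-KO tumors, among them Adam17, Birc3, Bcl3, Il18bp, Il27, Tgfbr2, Il6ra, Ski and Elavl1. Of these 24, 12 were lower and 3 higher with the offset, against 24.5% and 25.1% of the 2288 such expressed genes. Of the 23 at 10 or more times background in both APC-KO tumors, 15 were lower by edgeR with the offset, as were 24.9% of the 1468 such expressed genes. The counts and medians of the lists describe genes that passed this limit and support no direction for a list. The 96 listed genes were picked by pathway, with earlier results of these data known. The count of 32 called was 15 without APC-KO tumor 1 and 14 without APC-KO tumor 2.

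In the IL-1 and IL-18 pathway 6 of 7 expressed genes fell and 0 rose, with a median of -0.80 against -0.03 for all expressed genes. The 4 with the smallest p were Casp1, the protease that activates IL-1 beta and IL-18 (-0.87 ± 0.116, edgeR adjusted p = 0.00594), Il18bp, the soluble trap of IL-18 (-0.79 ± 0.130, 0.00962), Myd88, the adaptor of the IL-1 receptors (-0.80 ± 0.133, 0.0101), and Il1r2, the decoy receptor of IL-1 (-1.13 ± 0.205, 0.0127). Without the offset Casp1 and Il1r2 did not pass (adjusted p = 0.0839 and 0.115). Il1r1, the signalling receptor, was below the limit for expressed genes, at 31.8 and 35.98 scaled CPM in the APC-KO tumors over an expected 24.9 and 25.1, and at 6.58 and 7.97 in the APC-WT tumors over 0.489 and 3.51.

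Among TNF pathway genes 5 of 9 fell and 1 rose (median -0.70). Tnfaip3, which encodes the NF-kB inhibitor A20, read 589 and 572 scaled CPM in the APC-KO tumors and 3308 and 2629 in the APC-WT tumors, and fell by 1.84 ± 0.159 log2 units (edgeR adjusted p = 0.00316). Adam17, the protease that sheds TNF, changed by -1.05 ± 0.131 (0.0052), the receptor gene Tnfrsf1a by -1.05 ± 0.142 (0.0063) and Birc3, a ubiquitin ligase of the receptor complex, by -0.70 ± 0.110 (0.0087). All 4 also passed without the offset. The gene that rose was Traf1, an adaptor of TNF receptors, at 1.13 ± 0.273 with the offset (adjusted p = 0.0270) and 0.73 without it (0.0725), named after its value was seen.

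Of the IL-6, oncostatin M and IL-10 receptor and STAT3 genes 6 of 11 fell and 1 rose (median -0.46). Without the offset 9 fell and 1 rose, against 30.7% and 32.7% of expressed genes. Socs3, the feedback inhibitor of STAT3 signalling, read 1656 and 1503 scaled CPM in the APC-KO tumors and 4801 and 5532 in the APC-WT tumors (-1.51 ± 0.169, edgeR adjusted p = 0.00435). Bcl3, an atypical I kappa B protein, changed by -1.28 ± 0.150 (0.00467) and Il10ra, the ligand-binding chain of the IL-10 receptor, by -1.52 ± 0.244 (0.00927). Il6ra, the IL-6 receptor chain, was higher in APC-KO, by 0.99 ± 0.140 with the offset (0.00693) and by 0.65 without it (0.0371). It read 180.5 and 190.7 scaled CPM in APC-KO over an expected 33.88 and 34.1, and 140.2 and 99.25 in APC-WT over 0.664 and 4.775. Stat3 itself did not pass with the offset, at -0.31 ± 0.158 (0.162), and did without it, at -0.80 (0.00789).

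The IL-12 family partners depended on the offset. Of 4 expressed genes 2 fell with it, Ebi3 (-1.04 ± 0.101, edgeR adjusted p = 0.00361) and Il27 (-1.06 ± 0.148, 0.00683), which encode the chains of IL-27, and without it 0 passed (edgeR, 0 also at an unadjusted p below 0.05), at -0.11 and 0.02. Il23a, the partner of p40 in IL-23, and the receptor chain Il12rb1 passed in neither, at -0.16 and 0.01 with the offset. Il12a, the partner of p40 in IL-12, stayed below the limit, at 10.4 and 6.74 scaled CPM in APC-KO over an expected 6.67 and 6.71, and at 2.05 and 3.11 in APC-WT over 0.131 and 0.940.

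For TGF-beta activation, receptors and feedback 5 of 8 fell and 1 rose (median -0.98). Thbs1, which encodes an activator of latent TGF-beta, read 1244 and 550.1 scaled CPM in the APC-KO tumors against 7693 and 10200 in the APC-WT tumors (-2.81 ± 0.472, edgeR adjusted p = 0.0105). Tgfbr2, the type II receptor, changed by -1.17 ± 0.181 (0.00844) and Nrros, which anchors latent TGF-beta on macrophages, by -0.85 ± 0.177 (0.0182). Ski, a repressor of the pathway, rose by 1.09 ± 0.095 with the offset (0.00316) and by 0.58 without it (0.00549).

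Regulators of cytokine mRNA stability had 4 of 7 lower and 1 higher (median -0.72). Zfp36 and Zfp36l2, which bind AU-rich elements and speed decay of cytokine mRNA, changed by -1.31 ± 0.223 (edgeR adjusted p = 0.0109) and -1.91 ± 0.196 (0.00381). Dusp1, the phosphatase that ends p38 signalling, read 1749 and 2760 scaled CPM in the APC-KO tumors and 8750 and 8355 in the APC-WT tumors (-1.80 ± 0.245, 0.00634). Elavl1, which stabilises such mRNAs, rose by 0.80 ± 0.161 with the offset (0.0160) and did not pass without it (0.31, 0.0933). Background was not taken off in these fits. Elavl1 read 172.4 and 186.9 scaled CPM in APC-KO over an expected 40.62 and 40.89, and 136.3 and 152.7 in APC-WT over 0.796 and 5.725. Of 22 other cytokine ligands 5 were expressed, and 0 passed with the offset (edgeR, 1 at an unadjusted p below 0.05). Mif depended on the offset, at -0.32 (edgeR adjusted p = 0.0708) with it and 1.29 (0.00165) without it. Tgfb3, Tnfsf12 and Tnfsf9 were at -0.87, -0.60 and -0.74 with the offset.

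**Figure D5:**
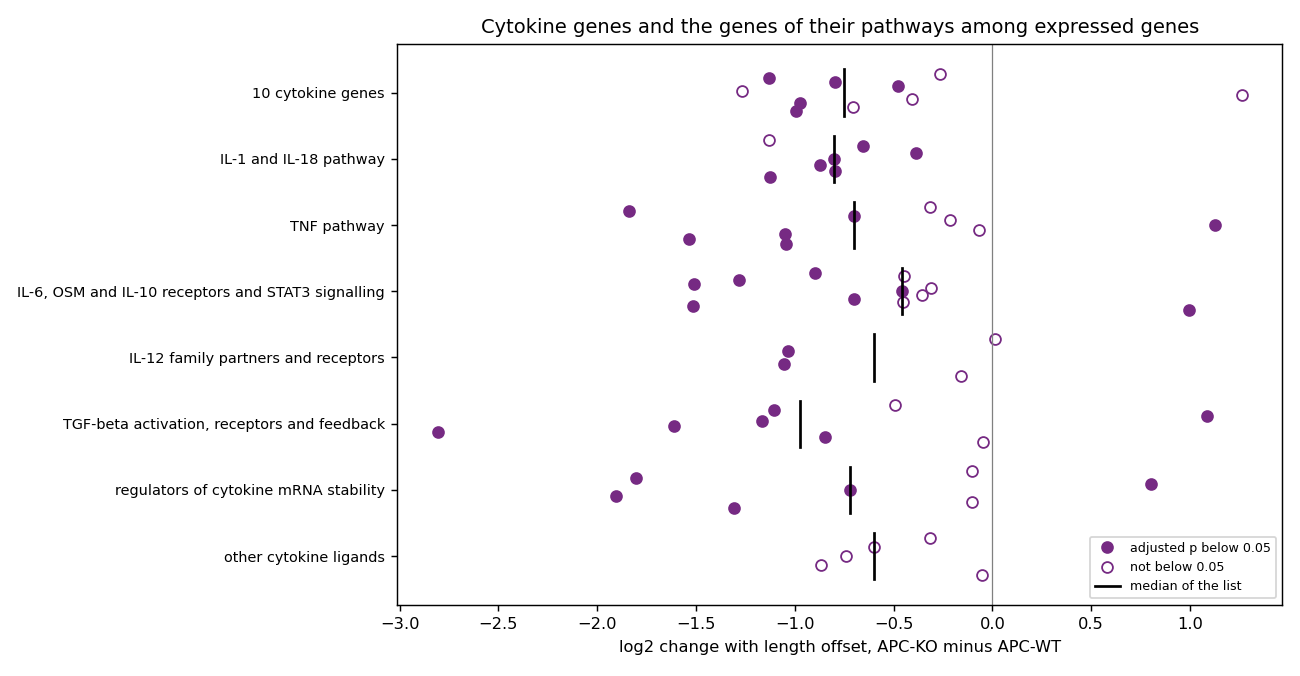
Log2 change with the length offset, APC-KO minus APC-WT, of the 10 cytokine genes and of the expressed genes of 7 pathway lists; filled points have an edgeR adjusted p below 0.05 and the black bar is the median of a list. With the offset all 8 medians lie below 0, between -0.98 and -0.46, against -0.03 for all expressed genes. Of the listed genes 28 are called lower and 4 higher. APC-WT weighed more in the limit that these genes passed, so the medians support no direction for a list. Without it the medians of the IL-12 family partners and the other cytokine ligands are -0.04 and 0.02. Those of the remaining lists then lie between -1.41 and -0.94.

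Among themselves the cytokine genes fell into unlike profiles over the 4 tumors. By the root mean square difference of log2 scaled CPM, centred over the tumors, Il1rn and Osm were the closest pair at 0.109, followed by Il1a and Osm at 0.175. Il6 lay farthest from the others, at 1.11 from Il1a and 1.27 from Osm. Among all expressed genes Nampt, which encodes an enzyme of NAD synthesis, was most like Il1a (0.0141), and Spint1, Pdia4 and Chpf2 were most like Osm (0.0212 to 0.0376). Ctsl, Ptafr and Neu1 were the nearest to Il1b (0.039 to 0.0636), and Rassf4, Khnyn and Prkcd to Il1rn (0.0815 to 0.0836). The nearest genes to Il6 were Bst1, Clec4d and Rgcc (0.0866 to 0.168): Clec4d, a C-type lectin receptor, read 238 and 94.4 scaled CPM in the APC-KO tumors and 50.5 and 76.9 in the APC-WT tumors. Parp14, Vcam1 and Pxdc1 were nearest to Il10 (0.112 to 0.21), each highest in APC-WT tumor 1. These likenesses rest on 4 tumors and are descriptions.

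Transcripts of other cells were present at levels that differed between tumors. The sum of 7 fibroblast markers was 383 and 566 scaled CPM in the APC-KO tumors, over an expected 206 and 207, against 1665 and 951 in the APC-WT tumors, over 4.04 and 29.1. Of these markers 3 and 4 lay at 2 or more times background in the APC-KO tumors and all 7 in APC-WT. Like Il1a, Il1rn, Osm and Tgfb1, this sum was lower in APC-KO than in APC-WT, and its part in those changes was not tested. Its largest member in APC-WT was Col3a1, at 1015 and 514, against 86.8 and 156 in APC-KO. Col1a1, Dcn and Lum were also lower in APC-KO, while Col1a2, Pdgfra and Pdgfrb read higher there with background not taken off. Col1a2 read 66.95 and 102.2 in APC-KO over an expected 48.71 and 49.03. In APC-WT it read 65.31 and 45.14 over 0.955 and 6.865. Pdgfrb read 26.64 and 30.54 in APC-KO over an expected 21.47 and 21.61, and 20.89 and 11.92 in APC-WT over 0.421 and 3.027. Pdgfra stood at 76.1 and 77.3 in APC-KO, over an expected 39.3 and 39.55, and at 24.4 and 16.6 in APC-WT. The sum of 5 epithelial markers was 221 and 277 in APC-KO and 170 and 533 in APC-WT, so it did not follow the genotype.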

How the data were processed

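Counts per gene, as deposited by the authors, are whole numbers for 55487 Ensembl gene IDs in 24 libraries, described by the labels as 6 replicates of each of 4 tumors; the submitters' processing notes name bcl2fastq 2.20.0, HISAT2, StringTie and mm9 without roles, settings or strand. Symbols, positions and lengths come from GENCODE M21 on GRCm38, so coordinates are those of GRCm38 and not of mm9 (55227 IDs had a symbol). Everything else was computed from these counts in R 4.3.3 (edgeR 4.0.16, limma 3.58.1, DESeq2 1.42.0) and Python 3.11.15 (pandas 2.3.3, numpy 2.4.6, scipy 1.17.1, matplotlib 3.10.9). Adjusted p-values are Benjamini-Hochberg values from edgeR unless another tool is named, over all genes tested, with a threshold of 0.05.

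Expressed genes had a mean of at least 10 CPM over the 4 tumors and at least 10 times the background expected per kilobase of exon from 1974 Olfr and Vmn receptor genes, without 12 loci sharing at least 0.3 of their 15-base words with the satellite gene Gm10800 (3941 genes). Since this limit is on CPM of all counts, levels in APC-WT weighed more in it. Scaled CPM divides counts by the TMM-scaled total of expressed genes. For the genotype, counts were summed over the 6 libraries of a tumor and fitted by edgeR's quasi-likelihood test, 2 APC-KO against 2 APC-WT sums, with a loess offset (span 0.5) of log2 level on log2 length of the longest transcript. Tumors of a genotype were compared over 24 libraries with 1 mean per tumor (45451 genes after filterByExpr). SE was computed as change over root F. Genes of like length are expressed genes within a factor of 1.25. Steps were tested on simulated data. Totals and the count of libraries limit precision, and counting intervals would cover counting error only.

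The cytokine genes, the pathway lists, the set of expressed genes, the offset and the tests were chosen with earlier results of these data known. Named were all 10 members, of each list up to 4 genes with the smallest p, and for each member the 3 expressed genes with the closest profile, of which some are given; a few others were named with their values in view. Alternatives were other offsets, limits, normalizations and tools, blocks by tumor or library number, and leaving out each tumor. Libraries were not duplicates: the lowest chi-square per degree of freedom between 2 libraries of a tumor was 6.45. No protein sequences were used here.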

Additional observations from a re-analysis of the deposited data

Results flagged for a closer look

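In 40 groups of 6 libraries, 10 genes in each of 4 tumors, 1 library stood apart from the others of its tumor. Osm read 608 scaled CPM in library 1 of APC-KO tumor 2, where the other 5 libraries lay between 543 and 564. The rule that picked it marks about 1 in 20 groups by chance. This library still lay below each APC-WT library, of which the lowest read 1230 scaled CPM.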

How the results depend on the processing

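Il1a, Il1rn, Il12b and Osm were lower in APC-KO under each alternative run, whether or not they passed. The count of 5 cytokine genes called between genotypes was 7 with an expressed limit of 5 CPM and 5 times background, 2 with a limit of 20 for both, 8 by DESeq2 (1 higher, 7 lower), 0 of the 10 with TMM over all genes (0 of 53705 genes by edgeR, 18647 at an unadjusted p below 0.05), 0 to 6 when each tumor was left out in turn (1670 expressed genes at an unadjusted p below 0.05 without APC-KO tumor 2), and 2 to 8 when this was done without the offset, which was chosen after seeing the data. TMM over all genes moved the median expressed gene by -4.01, and Il6, at -2.55 there, turned sign while it lay above that shift; the limit of 5 moved it by -0.41. Without the offset Tnf turned to 0.0186, and to 0.30 and 0.26 without APC-KO tumor 1 or APC-WT tumor 1; it was 0.0185 in both fits of all genes scaled to expressed genes and 0.0133 by limma-voom. Il18 turned to 0.75 in each of these fits, and to 0.80, 0.63, 0.79 and 0.71 without APC-KO tumor 1 or 2 or APC-WT tumor 1 or 2. Also without the offset Il1b turned to 0.19 without APC-KO tumor 2 and 0.0097 without APC-WT tumor 2, and Il10 to 0.53 without APC-WT tumor 1. With the offset Tgfb1 stood at -0.71 (edgeR adjusted p = 0.0106) with the limit of 5 and at 0.0095 with the limit of 20. The cause of these turns was not tested. The 32 calls on the pathway lists became 14 to 35 with 1 tumor left out. Between the APC-WT tumors, TMM over all genes called 10 members in place of 5, with Il1b at -1.22 and Il6 at -0.35.

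Of 36 same-numbered pairs of libraries 9 had correlated deviations over 0.1 (range -0.503 to 0.785). Differently numbered pairs were not set beside them, so these values cannot decide whether library numbers pair the samples. A replicate block by library number called the same counts, 6 and 5, between tumors, and a block by tumor number called 2 cytokine genes between genotypes. Deviations of same-numbered tumors correlated at -0.446, and a block with crossed numbers, chosen after seeing the data, called 8. With 2 tumors a genotype no exact test over tumors can pass, and the low levels of Il18, Il10, Il12b and Il6 in APC-KO rest on the shallower libraries.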

Other observations

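Cytokine ligands below the limit for expressed genes were read beside their background. Lif, a relative of oncostatin M, stood at 73.8 and 54.4 scaled CPM in the APC-KO tumors, over an expected 17.1 and 17.2, and at 37.2 and 47.1 in the APC-WT tumors, over 0.334 and 2.40. Ltb, which encodes lymphotoxin beta, read 24.4 and 41.9 in APC-KO, over 5.94 and 5.98, and 3.61 and 7.41 in APC-WT, over 0.117 and 0.838. Ifng was near background in APC-KO, at 3.66 and 9.26 over 5.08 and 5.11, and low in APC-WT, at 1.52 and 4.33 over 0.0995 and 0.716. Csf3, which encodes the granulocyte factor G-CSF, was expressed, at 233 and 135 in the APC-KO tumors and 98.9 and 153 in the APC-WT tumors, and its change of -0.05 with the offset did not pass (edgeR adjusted p = 0.895). In its order over the tumors Csf3 resembled Il6.

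The 6 dendritic cell markers summed to 233 and 231 scaled CPM in the APC-KO tumors, over an expected 102 and 103, and to 24.7 and 61.9 in the APC-WT tumors, over 2.00 and 14.4. B cell markers summed to 81.8 and 90.0 in APC-KO, over 47.6 and 47.9, and to 21.5 and 31.1 in APC-WT, over 0.933 and 6.71. No mast cell and basophil marker reached 2 times background in APC-KO, and 2 and 1 did in the APC-WT tumors. The part of any of these cells in the cytokine levels was not tested.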
